A study of Mus musculus with 12 samples.

Results

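Cathepsins and legumain are among the peptidases of the lysosome, and 10 of their genes were followed through the tibialis anterior muscle of mice with and without dystrophin. They were taken by gene symbol (Ctsa, Ctsb, Ctsc, Ctsd, Ctsh, Ctsk, Ctsl, Ctss, Ctsz and Lgmn), and each symbol had 1 row among the 30239 genes of the deposited table. Poly(A) RNA had been sequenced from untreated mice aged 6 months in 12 libraries, 4 per genotype. DMD-Null mice are labelled as null for the dystrophin gene Dmd, and the labels leave out how it was disrupted. The mdx strain, used as a model of Duchenne muscular dystrophy, carries a point mutation that stops translation of full-length dystrophin, and wild-type (WT) mice have the intact gene. The labels give no further allele, strain background or sex, and nothing in them says whether the numbered samples are separate animals, so the p-values reflect only how far these samples spread.

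Most of these enzymes are cysteine peptidases, made as inactive precursors, delivered to the lysosome by mannose 6-phosphate receptors and activated there by acid. Cathepsin D is an aspartic peptidase and cathepsin A a serine carboxypeptidase. Endopeptidases (S, K, L, D and legumain) cut inside a protein chain, whereas exopeptidases (C, H, Z and A) trim its ends, and cathepsin B does both. In damaged muscle, macrophages that clear dead fibres are rich in lysosomes, and the fibres themselves degrade organelles through lysosomal autophagy. Cystatins and related proteins inhibit the cysteine cathepsins.

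All 10 genes passed the filter on low values (FPKM of at least 1 in at least 4 libraries), as did 11376 genes in all. Their lowest counts were those of Ctsk in WT, from 213, in libraries of 60693078 to 64554184 counts for DMD-Null, 64120795 to 68054627 for mdx and 61145904 to 63073041 for WT. Dmd itself had 71 to 164 counts in DMD-Null, 713 to 1254 in mdx, and 542, 3597, 412 and 2446 in WT, so the DMD-Null libraries were below all others, as labelled. In these counts, which are not scaled by TMM, WT 1 and WT 3 (542 and 412) lay below every mdx library. The mdx point mutation leaves the transcript in place, so these counts check only the DMD-Null label. The libraries WT 1 and WT 3 stood apart from WT 2 and WT 4. In these libraries, counts leaned towards GC-rich genes (Spearman's rho across genes of 0.655 and 0.604 between GC content and a gene's log2 ratio to the average library), and their TMM factors, which scale a library to the others, were 0.694 and 0.698. DMD-Null 4 leaned the same way (0.450), and the other 9 libraries ranged from -0.579 to -0.0928. Results with WT 1 and WT 3 left out are given beside many results against WT. Where none is given, a count or a median may still have moved. The 8 myofibre markers were all above the filter and summed to 109168 to 389313 CPM over the 12 libraries.

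Stretches of promoter, from 120 bases before to 20 bases after the annotated start, are shown for Ctss and Ctsk, which lie next to each other on chromosome 3, and for Ctsd and Ctsa, whose levels differed least between genotypes. The sequences come from RefSeq on GRCm38.p6, which held 10 promoter windows for 8 of the 10 genes. Capitals mark GAGGAAG, a form of the site of the macrophage factor PU.1 (shown as its reverse complement), or TCACGTG, the core of the site bound by the lysosomal regulator TFEB.
Ctss, chr3:95526666-95526805, plus strand: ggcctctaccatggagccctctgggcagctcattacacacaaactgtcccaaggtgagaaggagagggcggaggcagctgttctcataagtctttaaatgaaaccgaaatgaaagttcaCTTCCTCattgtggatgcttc
Ctsk, chr3:95499090-95499229, plus strand: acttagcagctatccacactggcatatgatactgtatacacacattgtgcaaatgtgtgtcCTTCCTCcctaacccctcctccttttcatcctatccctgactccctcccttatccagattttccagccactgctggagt
Ctsd, chr7:142387808-142387947, minus strand: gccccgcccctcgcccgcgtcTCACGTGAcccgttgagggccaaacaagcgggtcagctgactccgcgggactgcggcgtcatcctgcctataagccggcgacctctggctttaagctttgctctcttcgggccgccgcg
Ctsa, chr2:164833653-164833792, plus strand: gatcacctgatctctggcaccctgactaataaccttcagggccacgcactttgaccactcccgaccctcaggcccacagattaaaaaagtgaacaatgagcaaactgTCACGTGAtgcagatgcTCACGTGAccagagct
In windows from 250 bases before to 50 bases after the start, searched on both strands, GAGGAAG was present in Ctss, Ctsk and Ctsc, and 13.6% of all 32851 windows held it. TCACGTG was present in Ctsd, in 1 of 2 windows of Ctsa and in 1 of 2 windows of Lgmn, against 3.77% of all windows. In Ctsa and Lgmn the window with the match lies inside the gene's coordinates, and for Ctsa it is the one shown. The window nearest the start of the gene held no match in either. The matches shown in Ctsd and Ctsa are each part of a palindrome read on both strands, so that the matches overlap. The GC box GGGCGG was found in windows of 5 of the genes (35.7% of all windows) and the TATA sequence TATAAA in 2 (13.6%). A match in these letters is a description of the window, and no binding was measured.

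In both mutants 7 of the 10 genes rose against WT and none fell. In mdx against WT, edgeR's quasi-likelihood test with Benjamini-Hochberg adjustment over all genes called 7 of 10 higher and 0 lower, against 15.0% of all 11376 genes higher and 20.1% lower (35.2% in all). In DMD-Null against WT it again called 7 of 10 higher and 0 lower, against 12.9% and 15.6% of all genes (28.5% in all). The endopeptidases Ctss, Ctsk and Lgmn had the largest changes. Ctsl, Ctsb, Ctsc and Ctsh rose by 1.05 to 1.43 on the log2 scale, and Ctsz, Ctsa and Ctsd did not pass. The median log2 fold change of the 10 genes was 1.15 in DMD-Null and 1.303 in mdx, beside 0.01 and 0.00 over all genes. It was 1.04 in DMD-Null and 1.15 in mdx with WT 1 and WT 3 left out. Both comparisons use the same 4 WT libraries, so they are not independent of each other. In these bulk samples, more cells of a type and more RNA per cell cannot be told apart.

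**Figure D1:**
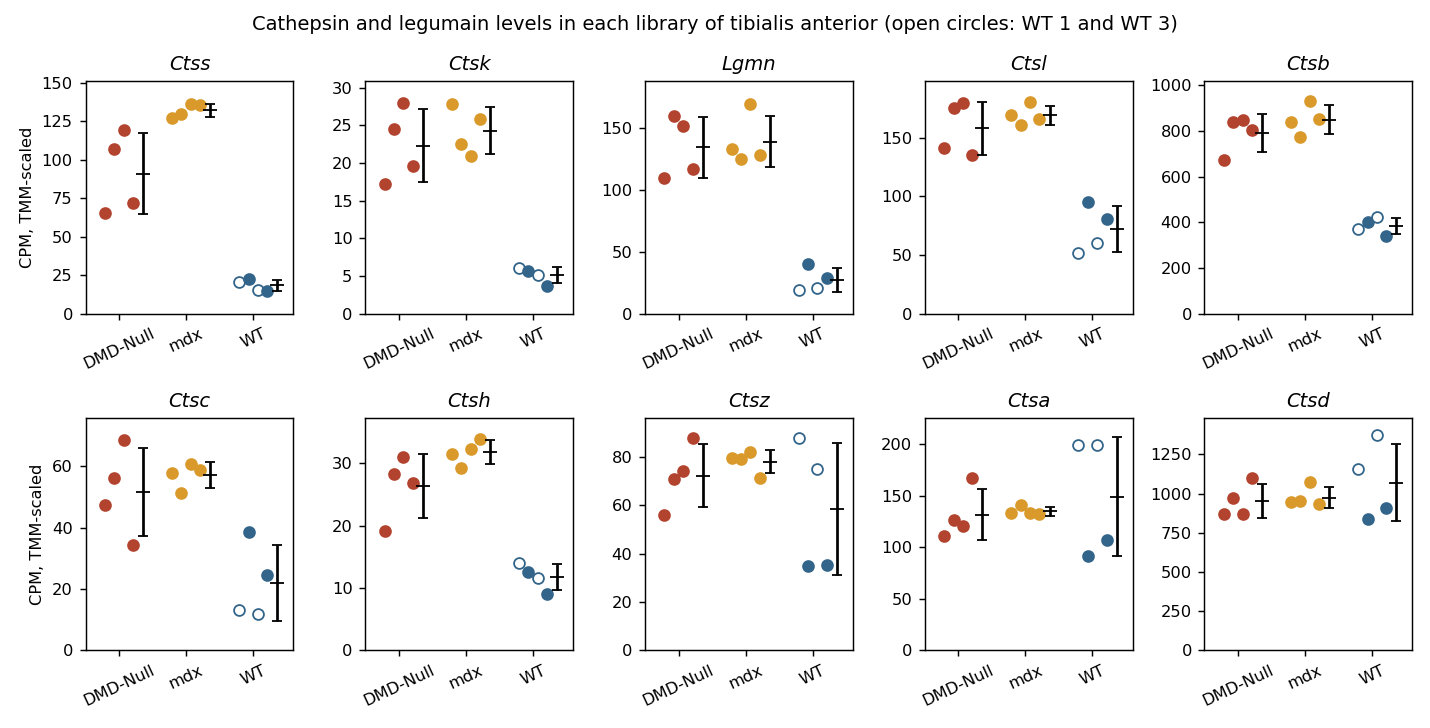
Level of each gene in every library, in TMM-scaled CPM, with the mean and SD of 4 libraries beside the points and WT 1 and WT 3 as open circles. In Ctss, Ctsk, Lgmn, Ctsl, Ctsb and Ctsh every DMD-Null and mdx library lies above every WT library, whereas in Ctsz, Ctsa and Ctsd the open circles lie above the other WT points.

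Cathepsin S is the endopeptidase of antigen-presenting cells that degrades the invariant chain of MHC class II, and unlike most of the family it stays active at neutral pH. Ctss (ENSMUSG00000038642, chromosome 3 from 95526786 to 95556403, plus strand) had 65.7, 107, 119 and 71.9 CPM in DMD-Null 1 to 4, 127, 129.8, 136 and 136 CPM in mdx 1 to 4, and 20.5, 22.4, 15.4 and 14.5 CPM in WT 1 to 4. Here and throughout, CPM are counts divided by the library's total over tested genes, multiplied by 1e+06 and scaled by TMM. The 3 genotypes did not overlap, with the DMD-Null libraries between mdx and WT. Mean levels were 91.0 ± 26.3 CPM in DMD-Null, 132 ± 4.46 in mdx and 18.2 ± 3.85 in WT (SD, n = 4 each). Ctss rose 4.99-fold in DMD-Null against WT (log2 fold change 2.32, SE 0.22, edgeR adjusted p = 4.11e-05). In mdx against WT it rose 7.24-fold (2.86, SE 0.22, edgeR adjusted p = 1.54e-05), the largest change of the 10 genes there.

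Cathepsin K cleaves triple-helical collagen and is best known from osteoclasts. Ctsk (ENSMUSG00000028111, chromosome 3 from 95499256 to 95509362, plus strand) had 17.2, 24.6, 27.9 and 19.6 CPM in DMD-Null, 27.8, 22.6, 20.9 and 25.8 CPM in mdx, and 6.01, 5.69, 5.12 and 3.60 CPM in WT. All 8 mutant libraries lay well above the WT libraries, and the mutants overlapped. It rose 4.37-fold in DMD-Null (2.13, SE 0.21, edgeR adjusted p = 5.31e-05) and 4.76-fold in mdx (2.25, SE 0.21, edgeR adjusted p = 3.80e-05). Ctsk and Ctss are neighbours, with 17423 bases and 0 other genes of the table between them.

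Legumain cuts after asparagine and converts other cathepsins, among them B, H and L, to their mature forms. Lgmn (ENSMUSG00000021190, chromosome 12 from 102394084 to 102439813, minus strand) had 109.6, 159.7, 151 and 117 CPM in DMD-Null, 133, 125, 169.7 and 129 CPM in mdx, and 18.7, 39.6, 20.5 and 28.6 CPM in WT. The lowest mutant library exceeded the highest WT library, WT 2, and DMD-Null and mdx overlapped. The rises were 4.998-fold in DMD-Null (2.32, SE 0.24, edgeR adjusted p = 8.31e-05) and 5.17-fold in mdx (2.37, SE 0.24, edgeR adjusted p = 6.80e-05). Without WT 1 and WT 3, its lowest libraries, the log2 fold change in DMD-Null was 1.95.

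Cathepsin L, an endopeptidase of nearly all tissues, is among the transcripts known to rise in wasting rodent muscle. Ctsl (ENSMUSG00000021477, chromosome 13 from 64359337 to 64370890, minus strand) stood at 141, 176, 179 and 135 CPM in DMD-Null, 169, 161, 180.2 and 166 CPM in mdx, and 51.9, 95.1, 60.5 and 80.6 CPM in WT. Mutant and WT libraries did not overlap, and WT 1 and WT 3 were the lowest of all. It rose by 1.13 on the log2 scale in DMD-Null (SE 0.19, edgeR adjusted p = 0.00137) and by 1.23 in mdx (SE 0.19, edgeR adjusted p = 0.000731). Its call held under all 23 alternatives, although the log2 fold change was 0.74 in DMD-Null and 0.78 in mdx with offsets corrected for GC content.

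Cathepsin B is the most abundant cysteine cathepsin here and acts as both endopeptidase and exopeptidase. Ctsb (ENSMUSG00000021939, chromosome 14 from 63122462 to 63145923, plus strand) had 672, 842, 849.6 and 806 CPM in DMD-Null, 840.1, 775, 932 and 853 CPM in mdx, and 371, 403, 421 and 338 CPM in WT. All mutant libraries lay above the WT libraries, which were close together whether or not they were WT 1 and WT 3. The gene rose 2.07-fold in DMD-Null (1.05, SE 0.13, edgeR adjusted p = 0.000229) and 2.22-fold in mdx (1.15, SE 0.13, edgeR adjusted p = 0.000118). It overlaps Fdft1 on the opposite strand, and if the counting ignored strand, reads of the overlap could fall to either gene.

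Cathepsin C, an exopeptidase that removes pairs of residues, activates the serine peptidases of granulocytes, mast cells and cytotoxic lymphocytes. Ctsc (ENSMUSG00000030560, chromosome 7 from 88278085 to 88310888, plus strand) had 47.3, 56.1, 68.6 and 34.4 CPM in DMD-Null, 57.7, 51.1, 60.7 and 58.9 CPM in mdx, and 13.1, 38.6, 11.8 and 24.5 CPM in WT. DMD-Null 4 lay below WT 2, so DMD-Null and WT overlapped, whereas mdx and WT did not. Ctsc rose by 1.23 on the log2 scale in DMD-Null (SE 0.34, edgeR adjusted p = 0.0210) and by 1.38 in mdx (SE 0.34, edgeR adjusted p = 0.0115). In DMD-Null it no longer passed without WT 1 (1.02, edgeR adjusted p = 0.0552), WT 3 (0.9985, edgeR adjusted p = 0.0547), DMD-Null 2 (1.19, edgeR adjusted p = 0.0546) or DMD-Null 3 (1.062, edgeR adjusted p = 0.0678). Without both WT 1 and WT 3 the change was 0.68 in DMD-Null (edgeR adjusted p = 0.0702). In mdx it was then 0.83 and still past the threshold (edgeR adjusted p = 0.0321).

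Cathepsin H is an aminopeptidase that in lung also processes surfactant protein. Ctsh (ENSMUSG00000032359, chromosome 9 from 90054152 to 90076089, plus strand) had 19.1, 28.2, 31.1 and 26.9 CPM in DMD-Null, 31.5, 29.3, 32.2 and 33.9 CPM in mdx, and 14.0, 12.5, 11.5 and 8.95 CPM in WT. No mutant library reached down to the WT libraries, and DMD-Null 1 was the lowest of the mutants. It rose by 1.16 on the log2 scale in DMD-Null (SE 0.18, edgeR adjusted p = 0.000815) and by 1.43 in mdx (SE 0.18, edgeR adjusted p = 0.000199). Across the called genes, mutant and WT libraries did not overlap in 6 genes for DMD-Null, against 11.6% of all genes, and in 7 for mdx, against 16.0%.

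**Figure D2:**
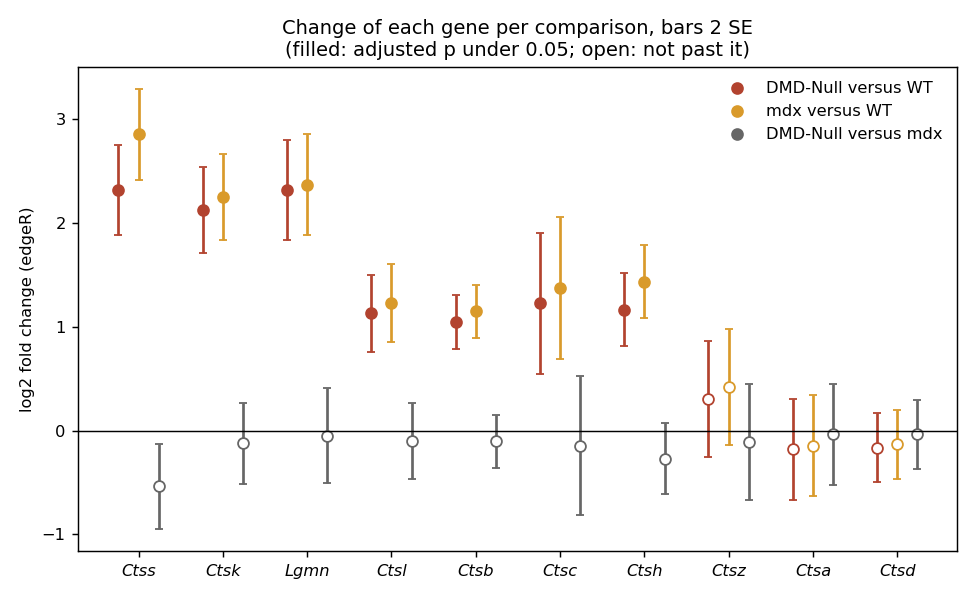
Log2 fold change of each gene in the 3 comparisons, from edgeR's fit over all genes, with bars of 2 SE and filled symbols for an adjusted p under 0.05. The 7 genes on the left are filled in both comparisons with WT, and no symbol is filled for DMD-Null against mdx, where all 10 values lie below 0.

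The other 3 genes did not pass against WT, and in each of them WT 1 and WT 3 stood above WT 2 and WT 4. Cathepsin Z is a carboxypeptidase of the cysteine family, found above all in myeloid cells. Ctsz (ENSMUSG00000016256, chromosome 2 from 174427493 to 174439039, minus strand) had 56.1, 70.8, 74.1 and 87.7 CPM in DMD-Null, 79.4, 79.2, 82.1 and 71.1 CPM in mdx, and 87.9, 34.8, 75.0 and 35.4 CPM in WT. WT 1 lay just above the highest mutant library, WT 3 within the range of the mutants, and WT 2 and WT 4 below all of it. The log2 fold changes were 0.31 in DMD-Null (SE 0.28, edgeR adjusted p = 0.390) and 0.42 in mdx (SE 0.28, edgeR adjusted p = 0.237). Leaving out WT 1 and WT 3 gave 1.010 (edgeR adjusted p = 0.00138) and 1.12 (edgeR adjusted p = 0.000728), past the threshold. With GC-corrected offsets they were 0.69 (edgeR adjusted p = 0.00166) and 0.85 (edgeR adjusted p = 0.000414). The gene overlaps Nelfcd on the opposite strand.

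Cathepsin A protects lysosomal beta-galactosidase and neuraminidase from degradation besides its own peptidase activity. Ctsa (ENSMUSG00000017760, chromosome 2 from 164832873 to 164840019, plus strand) had 111, 127, 121 and 168 CPM in DMD-Null, 133, 141, 133 and 132 CPM in mdx, and 199, 91.8, 199 and 107 CPM in WT. The mutants fell between the pairs of WT libraries. The log2 fold changes were -0.18 in DMD-Null (SE 0.24, edgeR adjusted p = 0.565) and -0.15 in mdx (SE 0.24, edgeR adjusted p = 0.629), and both were above 0 without WT 1 and WT 3, at 0.38 and 0.41, again not past the threshold. Pltp and Neurl2 overlap it on the opposite strand.

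Cathepsin D carries out much of the bulk protein breakdown of the lysosome. Ctsd (ENSMUSG00000007891, chromosome 7 from 142375911 to 142388038, minus strand) had 868, 968, 872 and 1098 CPM in DMD-Null, 944, 951, 1071 and 931 CPM in mdx, and 1157, 839, 1372 and 906 CPM in WT. The groups overlapped throughout. Its log2 fold change was -0.17 in DMD-Null (2-SE interval -0.50 to 0.17, edgeR adjusted p = 0.435) and -0.13 in mdx (-0.47 to 0.20, edgeR adjusted p = 0.520), and without WT 1 and WT 3 it was 0.09 and 0.13. The sign of such small values changed with the setting, the scaling of whole libraries among them. Library totals alone moved the median of all genes by 0.44 in DMD-Null and 0.42 in mdx. Ctsd then stood at 0.30 and 0.33, below that shift in both.

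**Figure D3:**
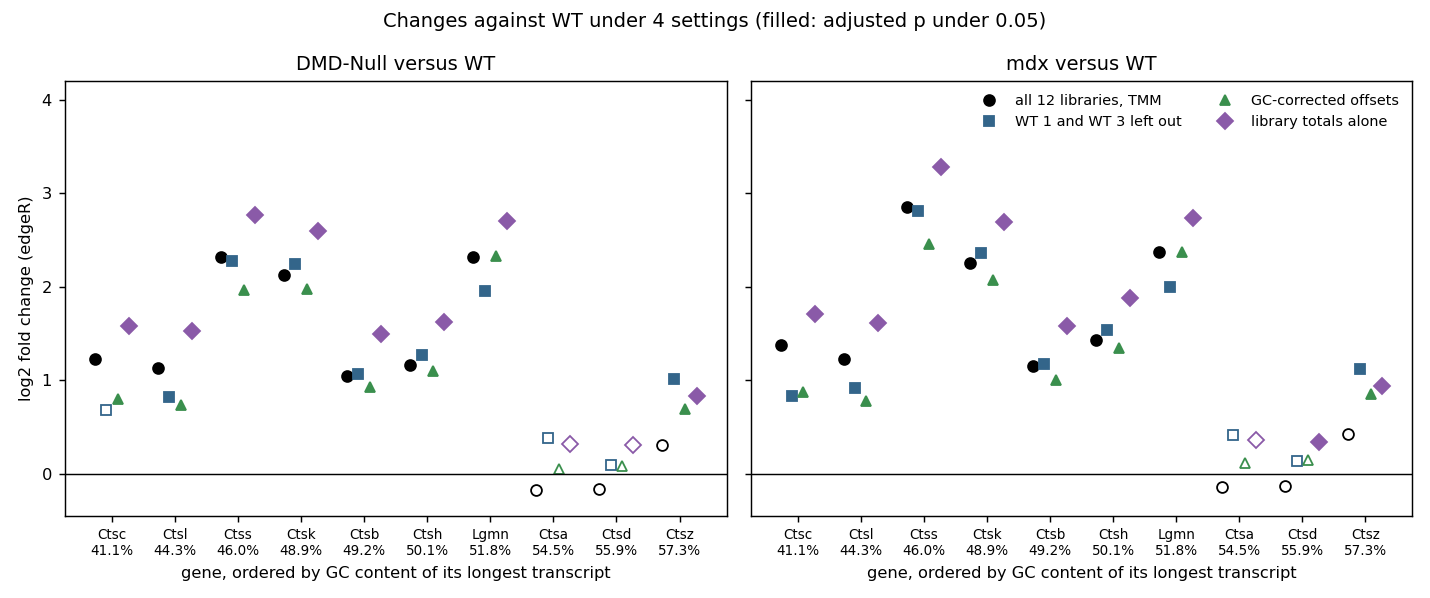
Log2 fold change against WT of each gene under 4 settings of edgeR's test, with the genes ordered by the GC content of their longest transcript and filled symbols for an adjusted p under 0.05. Ctsa, Ctsd and Ctsz, the 3 genes richest in GC at 54.5% to 57.3%, are the ones whose sign or call changes with the setting, and Ctsc, the poorest at 41.1%, loses its DMD-Null call without WT 1 and WT 3.

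The genes that rose had a transcript GC content of 41.1% to 51.8%, and Ctsa, Ctsd and Ctsz of 54.5%, 55.9% and 57.3%. With offsets corrected for GC content, 8 of 10 genes were called higher in each mutant, beside 1844 of all genes higher and 2521 lower in DMD-Null and 1967 and 3042 in mdx. Ctsc and Ctsl had smaller changes and Ctsz a larger one. Over all genes, the split into higher and lower also depended on scaling. It was 1471 and 1770 in DMD-Null with TMM, 3360 and 574 with library totals alone, and 4962 and 565 with limma on log2(FPKM + 1). In mdx it was 1709 and 2292, 3350 and 707, and 5049 and 672 in the same order.

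Per unit of transcript length, the mixture of these peptidases differed between the mutants and WT. The authors' FPKM, which divide by length, summed over the 10 genes to 787 ± 94.4 in DMD-Null, 846 ± 64.0 in mdx and 446 ± 23.1 in WT (SD, n = 4 each), with ranges of 656 to 878, 791 to 938 and 421 to 477. These sums carry the scaling to library totals, under which the median of all genes also lay above WT (by 0.36 in DMD-Null and 0.35 in mdx on log2(FPKM + 1)). Divided by the TMM factors, a scaling added after the data were seen, the sums were 707 ± 67.6 in DMD-Null, 764 ± 44.3 in mdx and 555 ± 108 in WT (SD, n = 4 each). DMD-Null (610 to 761) and WT (463 to 683) then overlapped through WT 3, whereas mdx (732 to 829) stayed above WT. The shares below do not depend on either scaling. Ctsd made up 51.2% ± 4.24 of the sum in DMD-Null, 48.5% ± 0.752 in mdx and 71.2% ± 2.90 in WT. Ctsb made up 16.5% ± 0.700 in DMD-Null, 16.4% ± 0.597 in mdx and 10.2% ± 1.79 in WT. The share of Ctss was 8.42% ± 2.14 in DMD-Null, 11.4% ± 0.532 in mdx and 2.19% ± 0.696 in WT. Lgmn took 7.30% ± 1.07 in DMD-Null, 6.98% ± 0.611 in mdx and 1.96% ± 1.01 in WT. Cathepsin D transcripts thus remained the most abundant in every library, and the shares of Ctss and Lgmn in the mutants did not overlap with those in WT. Without WT 1 and WT 3 the WT means were 443 FPKM in sum, 70.0% for Ctsd, 11.5% for Ctsb and 2.56% for Ctss, values added after the data were seen. The share of Lgmn was 3.23% in WT 2 and 2.31% in WT 4, against 1.15% in WT 1 and 1.12% in WT 3.

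**Figure D4:**
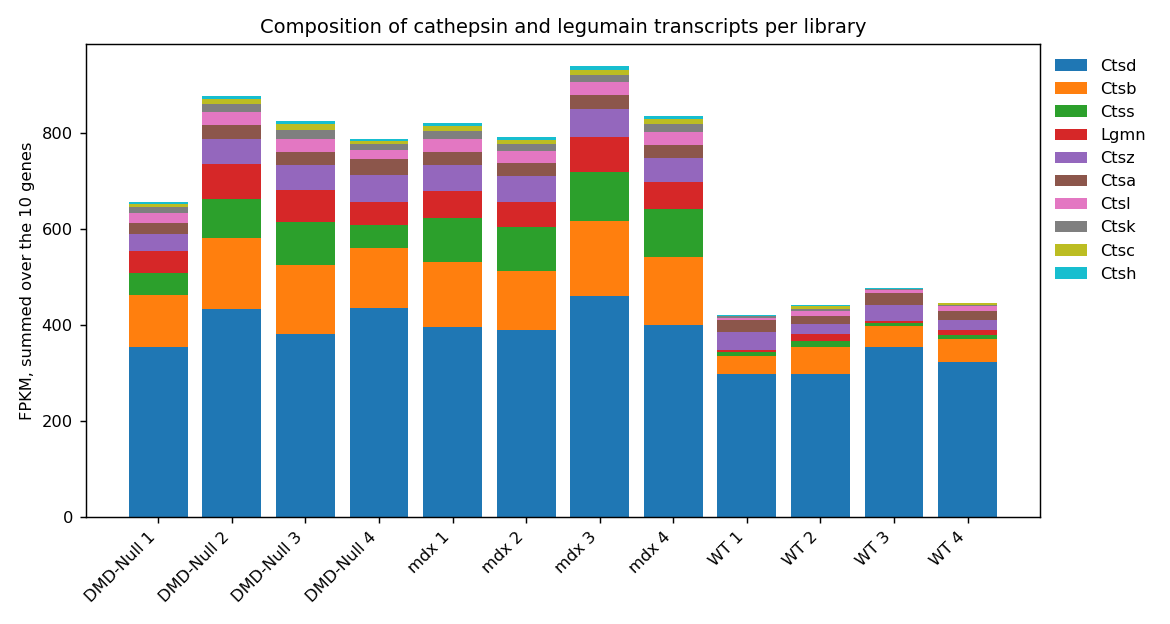
FPKM of the 10 genes stacked for each library. Every DMD-Null and mdx bar is taller than every WT bar on this scale of library totals, although DMD-Null 1 (610) falls below WT 3 (683) once sums are divided by TMM factors; Ctsd is the largest block in all 12, and the Ctsb, Ctss and Lgmn blocks are taller in the mutants.

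The order of the genes by FPKM also differed. In WT, Ctsd (297 to 354 FPKM) was followed by Ctsb (37.0 to 55.6), Ctsz (20.1 to 36.8) and Ctsa (16.2 to 25.6). The ranges of Ctsz and Ctsa overlapped, although Ctsz was above Ctsa within every WT library. Ctss (6.90 to 13.8), Lgmn (4.85 to 14.2) and Ctsl (4.82 to 12.2) came next and were not separable from each other in WT, and Ctsc, Ctsk and Ctsh were between 1.22 and 5.54 FPKM. In mdx, Ctss (91.8 to 101 FPKM) came after Ctsd (389 to 461) and Ctsb (123 to 156), followed by Lgmn (51.7 to 73.9) and Ctsz (49.7 to 57.6), which overlapped. In DMD-Null, the ranges of Ctss (46.4 to 90.0 FPKM), Lgmn (45.3 to 72.4) and Ctsz (37.4 to 56.7) overlapped below Ctsd (354 to 435) and Ctsb (107 to 146). Within every DMD-Null library Ctss was above Lgmn, whereas the place of Ctsz varied.

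DMD-Null was then compared with mdx, which asks how these dystrophin mutants differ from each other. No gene of the 10 was called by edgeR, nor by DESeq2. Of all 11376 genes edgeR called 2 (0.0176%), both lower in DMD-Null and both from the list of lung markers given below. All 10 log2 fold changes lay below 0, from -0.54 to -0.03 with a median of -0.11, beside a median of 0.01 over all genes. Ctss had the largest, at -0.54 (SE 0.20, 2-SE interval -0.95 to -0.13). Its unadjusted p was 0.0222, the only one of the 10 under 0.05, and its edgeR adjusted p was 0.999989. Over all genes, 120 had an unadjusted p under 0.05. Every DMD-Null library was below every mdx library for Ctss, as for 1.02% of all genes. Leaving out single libraries moved the value between -0.70 and -0.41. The 2-SE intervals of the other 9 genes included 0, and the widest were those of Ctsc (-0.81 to 0.52) and Ctsz (-0.67 to 0.45). For Ctsb the interval was -0.36 to 0.15. These intervals leave room for differences of either sign, so the mutants are not shown to be alike. The spread of Ctss was larger in DMD-Null, where libraries 1 and 4 were low and 2 and 3 were high, and the other 6 genes called against WT had the same order of libraries, with 1 and 4 below 2 and 3. The summed macrophage markers, described next, were also lower in DMD-Null 1 and 4 (615 and 900.0 CPM) than in DMD-Null 2 and 3 (1067 and 1206 CPM). So were the summed fibroblast markers (2183 and 2516 CPM, against 2850 and 2654 CPM). The dendritic cell markers did not keep that order, with 373 CPM in DMD-Null 4 and 330 CPM in DMD-Null 2. DMD-Null 4, which leaned towards GC-rich genes (rho 0.450), was the highest of its group for Ctsz, Ctsa and Ctsd. The part of macrophages, of fibroblasts or of GC content in the order of the DMD-Null libraries was not tested.

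Markers of some other cell types, among them macrophages, dendritic cells and fibroblasts, were also higher in the mutants. The summed level of 23 macrophage markers was 615 to 1206 CPM in DMD-Null, 1022 to 1239 in mdx and 163 to 292 in WT, and no marker of this or any other list was at 0 in all 12 libraries. Of the 21 tested, 17 rose in DMD-Null and 19 in mdx, against 12.9% and 15.0% of all genes. None fell, and the medians were 1.85 and 2.03. Leaving out WT 1 and WT 3, 19 rose in each mutant, with medians of 2.02 and 2.26. DMD-Null 1 had the lowest macrophage sum of the mutants, 615 CPM, and the lowest Ctss, Ctsk and Lgmn. Its dendritic cell and fibroblast sums (241 and 2183 CPM) were also the lowest of the mutants. Dendritic cell markers summed to 241 to 474 CPM in DMD-Null, 477 to 579 in mdx and 55.0 to 259 in WT. DMD-Null lay below mdx as for Ctss, though narrowly, and overlapped WT through WT 1, which Ctss did not. Of 8 markers 3 were tested, and most of the sum was Cd74 and H2-Aa, genes of antigen presentation that other cells also use. Cd74 was at 248 ± 69.1 CPM in DMD-Null, 375 ± 38.9 in mdx and 116 ± 92.2 in WT, and H2-Aa at 82.0 ± 28.1, 133 ± 7.90 and 14.3 ± 4.67 in the same order (SD, n = 4 each). All 3 tested rose in mdx and 2 in DMD-Null, where Cd74 did not pass (1.09, edgeR adjusted p = 0.1004). The medians of the 3 were 2.52 in DMD-Null and 3.22 in mdx. Without WT 1 and WT 3, all 3 were called higher in DMD-Null as well. Osteoclast markers, of which 3 of 9 were above the filter, summed to 52.6 to 60.8 CPM in DMD-Null, 59.6 to 66.7 in mdx and 46.3 to 57.3 in WT, with an overlap between DMD-Null and WT that Ctsk did not have. Most of that sum was Nfatc1 (38.4 ± 2.91 CPM in DMD-Null, 39.8 ± 1.40 in mdx and 38.4 ± 3.10 in WT, SD, n = 4 each), which did not pass. The other 2 tested, Acp5 and Atp6v0d2, rose in both mutants, by 0.98 and 2.57 in DMD-Null and by 1.54 and 3.24 in mdx on the log2 scale. Fibroblast markers summed to 2183 to 2850 CPM in DMD-Null, 2336 to 2952 in mdx and 431 to 936 in WT. Of 10 tested 6 rose in DMD-Null, and 7 rose and 1 fell in mdx, with medians of 1.54 and 1.58. Leaving out WT 1 and WT 3, 7 rose in each mutant and none fell, with medians of 1.27 and 1.40. The part of any of these cells in the changes of the cathepsins was not tested.

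**Figure D5:**
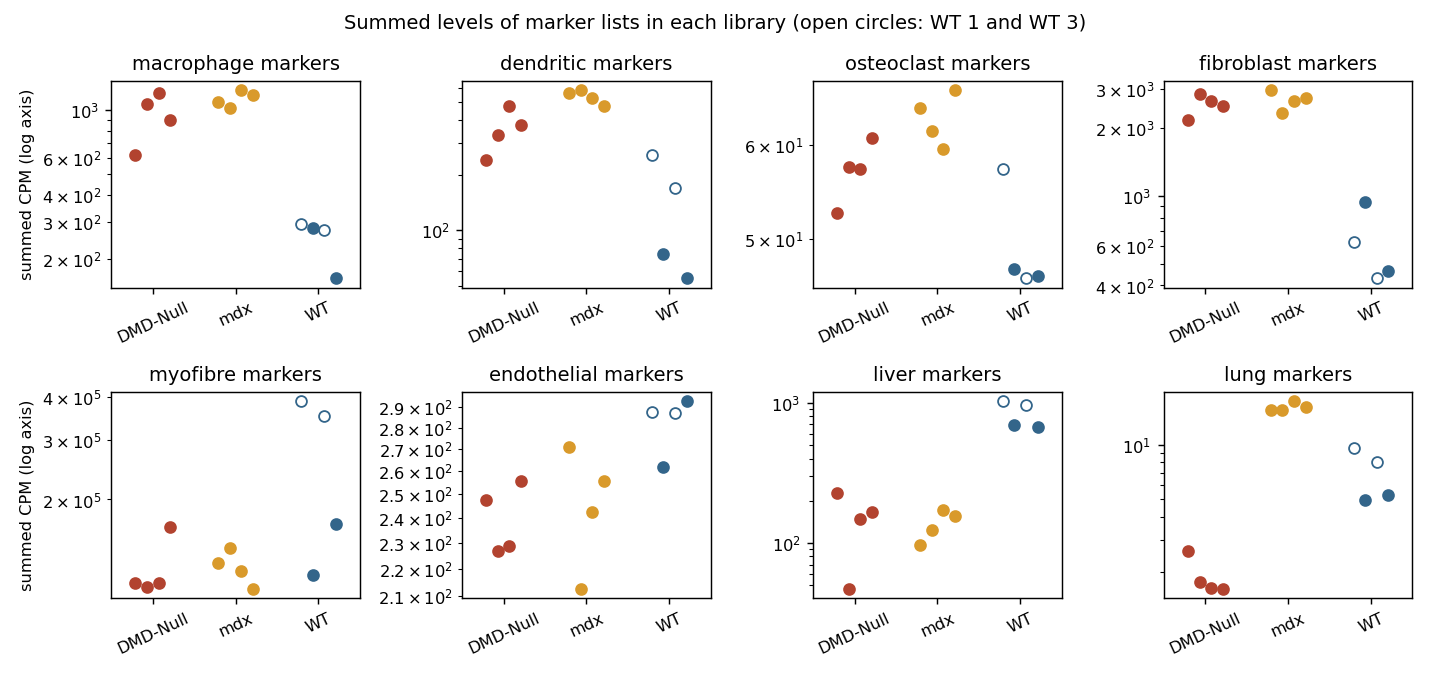
Summed TMM-scaled CPM of 8 marker lists in every library, on log axes, with WT 1 and WT 3 as open circles. Macrophage and fibroblast sums are higher in every mutant library than in every WT library, liver sums are higher in WT, and lung sums are highest in mdx and lowest in DMD-Null.

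Transcripts of other organs differed as well. The 10 liver markers summed to 47.0 to 226 CPM in DMD-Null, 96.6 to 171 in mdx and 671 to 1027 in WT, against the direction of the cathepsins. Of these, 8 fell in each mutant, with medians of -2.89 in DMD-Null and -3.11 in mdx. Leaving out WT 1 and WT 3, 1 fell in DMD-Null and 5 in mdx, with medians of -2.58 and -2.80. The 8 lung markers summed to 1.61 to 2.59 CPM in DMD-Null, 15.5 to 17.4 in mdx and 4.99 to 9.63 in WT. Of the 3 tested, 2 fell in DMD-Null against mdx, and they were the only genes edgeR called there. Myofibre markers summed to 110794 to 165749 CPM in DMD-Null, 109168 to 144298 in mdx and 119912 to 389313 in WT. In each mutant 4 of 8 fell, against 15.6% of all genes in DMD-Null and 20.1% in mdx, with medians of -1.04 and -0.99. Leaving out WT 1 and WT 3, the highest libraries, the medians were -0.19 and -0.18 and these calls ended. The sums of endothelial markers were 227 to 256 CPM in DMD-Null, 213 to 271 in mdx and 262 to 293 in WT, and 1 of 4, Vwf, fell in each mutant, a call that in mdx ended with WT 1 and WT 3 left out. Adipocyte markers, 1 of 5 above the filter, summed to 1.299 to 9.79 CPM in DMD-Null, 2.52 to 3.65 in mdx and 3.44 to 17.3 in WT. The 1 tested fell in mdx only, a call that ended with WT 1 and WT 3 left out. The part of these transcripts was not tested either.

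The genes whose levels ran most like each cathepsin were taken by the smallest root mean square difference of centred log2 CPM over the 12 libraries, as a description. This distance is smaller for a gene that varies little, and the distance of each gene from its own mean was 0.197 for Ctsd and 0.325 for Ctsa, against 1.062 for Ctsk and 1.27 for Ctss, so the values are not comparable between the 10 genes. Ctss was closest to Clec12a (0.137), a lectin receptor of myeloid cells, and to Mpeg1 (0.154), the macrophage gene of perforin-2. Ctsk was closest to the Fc receptor gene Fcgr3 (0.201) and the complement gene C1qc (0.205), and Lgmn to Anxa1 (0.148) and Ckap4 (0.189). For Ctsb the nearest were Ifnar2 (0.119) and the cathepsin inhibitor Cstb (0.129). For Ctsl they were Il10rb (0.0969) and Edem1 (0.0976), for Ctsc Sdcbp (0.0864) and Zfp36l2 (0.0998), and for Ctsh Gltp (0.124) and P2rx4 (0.138). The GC-rich genes had other neighbours. Ctsd ran with the ribosomal protein genes Rpl10 (0.0577) and Rps16 (0.0607), Ctsa with Nucb1 (0.0770) and Cog1 (0.0870), and Ctsz with P3h1 (0.0973) and 1700017B05Rik (0.112). Among the 10 themselves, Ctsa and Ctsd, which varied least, were 0.169 apart, Ctsb and Ctsh 0.189 (against 0.533 and 0.659 from their own means), and Ctsk and Ctss 0.304.

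The counts of the lysosomal lists that follow stand beside the shares given above for all genes, 12.9% higher and 15.6% lower in DMD-Null and 15.0% and 20.1% in mdx. When WT 1 and WT 3 were left out, 1367 of the 11376 genes rose and 1119 fell in DMD-Null, and 1408 rose and 1241 fell in mdx. Other lysosomal peptidases were examined as a list of 21 genes, of which 9 were tested. In DMD-Null 5 rose, in mdx 6 rose and none fell, with medians of 0.78 and 0.84. With these WT libraries left out, 4 of the 9 rose in DMD-Null and 5 in mdx, with medians of 0.34 and 0.36. Napsa, an aspartic peptidase best known from lung and kidney, was at 2.997 ± 1.39 CPM in DMD-Null, 3.43 ± 0.419 in mdx and 0.594 ± 0.103 in WT (SD, n = 4 each). It rose by 2.33 on the log2 scale in DMD-Null (edgeR adjusted p = 0.00126) and by 2.52 in mdx (edgeR adjusted p = 0.000699). Prcp, a lysosomal carboxypeptidase, rose by 1.61 in DMD-Null (edgeR adjusted p = 0.00212) and by 1.77 in mdx (edgeR adjusted p = 0.00111).

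The inhibitors were mixed. Of 10 tested among 25 listed, 3 rose and 2 fell in DMD-Null, and 3 rose and 4 fell in mdx, with medians of 0.05 and -0.30. When WT 1 and WT 3 were left out, 3 rose in DMD-Null, 4 rose in mdx and the falls were no longer called. The medians were then 0.20 in DMD-Null and -0.20 in mdx. Cystatin B, the inhibitor within cells, rose. Cstb was at 12.3 ± 1.75 CPM in DMD-Null, 13.0 ± 2.32 in mdx and 5.46 ± 0.112 in WT (SD, n = 4 each), with log2 fold changes of 1.18 (edgeR adjusted p = 0.000413) and 1.25 (edgeR adjusted p = 0.000234). The secreted inhibitor cystatin C did not pass. Cst3 was at 349.8 ± 23.4 CPM in DMD-Null, 385 ± 41.4 in mdx and 316 ± 50.5 in WT (SD, n = 4 each), with changes of 0.15 (edgeR adjusted p = 0.412) and 0.28 (edgeR adjusted p = 0.121). Leaving out WT 1 and WT 3, the mdx value was 0.46 and past the threshold (edgeR adjusted p = 0.0233). Serpinb1a, a serpin of leukocytes that inhibits neutrophil serine peptidases, rose by 3.74 in DMD-Null (edgeR adjusted p = 0.000105) and by 3.19 in mdx (edgeR adjusted p = 0.000208). Ahsg, the plasma protein fetuin-A made by liver, fell by 2.66 in DMD-Null (edgeR adjusted p = 0.0309) and by 2.65 in mdx (edgeR adjusted p = 0.0274), both no longer past the threshold with WT 1 and WT 3 left out (0.0710 and 0.0690). The liver markers above moved the same way.

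Among 41 tested hydrolases of lipids, sugars and nucleic acids, 13 rose and 5 fell in DMD-Null, and 17 rose and 7 fell in mdx, with medians of 0.23 and 0.27. When WT 1 and WT 3 were left out, 17 rose in DMD-Null, 20 rose in mdx and 1 fell in each, with medians of 0.36 and 0.44. Plbd1, a phospholipase B-like protein, was at 10.1 ± 2.95 CPM in DMD-Null, 11.5 ± 1.57 in mdx and 37.9 ± 3.06 in WT (SD, n = 4 each). It fell by 1.91 in DMD-Null (edgeR adjusted p = 7.50e-05) and by 1.72 in mdx (edgeR adjusted p = 0.000123). Asah1, acid ceramidase, rose by 1.33 in DMD-Null (edgeR adjusted p = 0.0233), not past the threshold with WT 1 and WT 3 left out (0.75, edgeR adjusted p = 0.0656). In mdx Asah1 rose by 1.48 (edgeR adjusted p = 0.0130) and still passed without these libraries (0.90, edgeR adjusted p = 0.0311).

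Of 22 genes of the lysosomal membrane, 6 rose and 1 fell in DMD-Null, and 7 rose and 1 fell in mdx (5 and 2, and 6 and 3, with WT 1 and WT 3 left out). The leukocyte membrane protein gene Laptm5 rose by 1.73 in DMD-Null (edgeR adjusted p = 0.00394) and by 1.99 in mdx (edgeR adjusted p = 0.00165). Lamp2, whose loss causes Danon disease of muscle, rose by 1.36 (edgeR adjusted p = 0.0234) and 1.45 (edgeR adjusted p = 0.0158), neither past the threshold with WT 1 and WT 3 left out (0.0827 and 0.0533). Of 19 subunits and partners of the proton pump that acidifies the lysosome, 6 rose and 1 fell in DMD-Null, and 7 rose and 2 fell in mdx. Only 1 fell in mdx with WT 1 and WT 3 left out, and the other counts stayed. Atp6v0d2, a subunit enriched in osteoclasts and macrophages, was at 5.85 ± 1.46 CPM in DMD-Null, 9.33 ± 1.71 in mdx and 0.985 ± 0.389 in WT (SD, n = 4 each). It rose by 2.57 in DMD-Null (edgeR adjusted p = 0.000143) and by 3.24 in mdx (edgeR adjusted p = 3.94e-05), and it also stands in the osteoclast list. Atp6ap2, an accessory protein of the pump, rose by 1.13 (edgeR adjusted p = 0.00678) and 1.29 (edgeR adjusted p = 0.00305).

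Of 14 genes that sort enzymes to the lysosome, 3 rose and 2 fell in DMD-Null, and 4 rose and 3 fell in mdx. With WT 1 and WT 3 left out, 2 rose and 2 fell in DMD-Null, and 1 rose and 2 fell in mdx. Sorl1, a sorting receptor, fell by 0.92 in DMD-Null (edgeR adjusted p = 0.000134) and by 0.75 in mdx (edgeR adjusted p = 0.000393). The adaptors Gga1 and Gga3 fell by 1.08 (edgeR adjusted p = 0.0160) and 0.88 (edgeR adjusted p = 0.0185) in mdx, and neither passed with WT 1 and WT 3 left out (0.105 and 0.165). In DMD-Null Gga1 fell by 1.03 (edgeR adjusted p = 0.0221) and Gga3 was at -0.65 (edgeR adjusted p = 0.0649). The Gga1 value in DMD-Null was then -0.27 (edgeR adjusted p = 0.172).

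Of 18 tested regulators of lysosomal genes, 3 rose and 2 fell in DMD-Null, and 2 rose and 2 fell in mdx, close to or below the shares of all genes. Leaving out WT 1 and WT 3 gave 2 and 1 in DMD-Null and 3 and 1 in mdx. Spi1, the gene of PU.1, was at 13.4 ± 4.93 CPM in DMD-Null, 14.5 ± 2.49 in mdx and 4.00 ± 1.67 in WT (SD, n = 4 each), and rose by 1.75 (edgeR adjusted p = 0.00482) and 1.86 (edgeR adjusted p = 0.00309). Tfeb was at 75.2 ± 12.3 CPM in DMD-Null, 70.1 ± 9.41 in mdx and 160 ± 84.7 in WT (SD, n = 4 each), and fell by 1.09 (edgeR adjusted p = 0.0263) and 1.19 (edgeR adjusted p = 0.0163). With WT 1 and WT 3 left out these were -0.27 (edgeR adjusted p = 0.327) and -0.37 (edgeR adjusted p = 0.161). In DMD-Null against mdx, no gene of the 7 lysosomal lists was called in either direction.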

How the data were processed

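Per the labels' protocols, RNA with an integrity number above 7 was made into stranded poly(A) libraries. HISAT2 2.0, StringTie 1.3.4, cutadapt 1.10 and FastQC 0.10.1 were used, per the submitters' processing notes. The authors deposited raw read counts per gene and FPKM, which they scaled to gene length and library size, in 1 table. The sources used here do not say whether counting used strand, so overlapping and antisense genes are uncertain. The notes name GRCm39, but of 30155 genes also in the GRCm38 annotation 99.7% shared a start or end with it, and coordinates are read as GRCm38. Repeated names (58 in the table) were resolved by the highest total count.

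Genes with FPKM of at least 1 in at least 4 libraries were tested (11376, with 18863 removed) by edgeR 4.0.16 in R 4.3.3, with its quasi-likelihood test on the deposited counts, TMM factors, genotype as the only term and all 12 libraries in 1 model. Benjamini-Hochberg adjustment ran over all tested genes, and a gene was called at an adjusted p under 0.05. The SE is the absolute log2 fold change over the square root of F. The script was tested on simulated data. GC content came from the longest GRCm38 transcript and was known for 99.9297% of tested genes. Alternatives were median-of-ratios scaling, library totals alone, DESeq2 1.42.0, a mean FPKM of at least 5 or no filter, limma 3.58.1 on log2(FPKM + 1) or log2(FPKM + 0.1), only the 8 libraries compared, a replicate block, offsets from a loess curve on GC (span 0.5, degree 1), WT 1 and WT 3 left out, and each library left out in turn.

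The 10 genes, the lists and the tests were chosen with earlier results of these data known. The genes named are all 10, from each of 7 lysosomal lists the 2 called genes with the largest change in each comparison with WT, Cstb and Cst3, and for each of the 10 genes the 2 genes nearest in pattern. A gene that this rule names among the hydrolases is not reported here. Replicate numbers did not pair the samples: correlations of deviations from the group means were -0.586 to 0.215 between libraries of the same number and -0.761 to 0.691 between those of different numbers. No pair of replicates agreed within sampling noise.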

Additional observations from a re-analysis of the deposited data

Results flagged for a closer look

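In 4 mdx libraries, mdx 2 stood apart for Ctsa (141 CPM, against 132 to 133 in the other 3), with a gap of 0.857 of the range of the group. For Ctsd, mdx 3 stood apart (1071 CPM, against 931 to 951), with a gap of 0.859. Both exceed Dixon's critical value for 4 samples at the 95% level. Chance flags about 1 in 20 groups, and 33 groups were examined.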

How the results depend on the processing

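Under the 23 alternatives of each comparison with WT, Ctss, Ctsk, Lgmn, Ctsl, Ctsb and Ctsh kept their direction and their call wherever they were tested (Ctsh is under a mean FPKM of 5), with Ctss at 1.96 to 2.77 in DMD-Null and 2.46 to 3.35 in mdx on the log2 scale. Members called higher numbered 7 in each mutant, 6 to 9 under the alternatives in DMD-Null and 6 to 10 in mdx, where limma on FPKM called all 10, beside 5049 of all 11376 genes higher. Ctsz was called with library totals alone (0.83 in DMD-Null, edgeR adjusted p = 0.0107, and 0.94 in mdx, edgeR adjusted p = 0.00589), with limma (0.87 and 0.99 on log2(FPKM + 1)), with GC-corrected offsets and without WT 1 and WT 3. The DMD-Null call of Ctsc also ended with only the 8 libraries compared (edgeR adjusted p = 0.0813), with the fold change still 1.23. Ctsa and Ctsd turned above 0 in the comparisons with WT, the cause of which was not tested beyond the settings themselves. In DMD-Null against WT, Ctsa and Ctsd were 0.32 and 0.30 with library totals alone, 0.012 and 0.014 at a mean FPKM of at least 5, 0.35 and 0.33 with limma on log2(FPKM + 1), 0.37 and 0.33 on log2(FPKM + 0.1), 0.052 and 0.081 with GC-corrected offsets, and 0.38 and 0.094 without WT 1 and WT 3. In mdx against WT they were 0.36 and 0.33, 0.057 and 0.057, 0.40 and 0.37, 0.42 and 0.37, 0.12 and 0.15, and 0.41 and 0.13 in the same order of settings. Of these, Ctsd was past the threshold with library totals alone in mdx (edgeR adjusted p = 0.0379) and with limma in both mutants, and Ctsa with limma in mdx. In limma's fit the median of all genes moved by 0.36 in DMD-Null and 0.35 in mdx with a pseudocount of 1, and by 0.50 in both with 0.1. With single libraries left out, Ctsa ranged from -0.32 to 0.011 in mdx against WT. In DMD-Null against mdx, the ranges were -0.18 to 0.039 for Ctsa, -0.31 to 0.00040 for Ctsc, -0.12 to 0.014 for Ctsd and -0.14 to 0.062 for Lgmn.

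Over all genes, 3241 were called in DMD-Null against WT. That count was 1483 at a mean FPKM of at least 5, 5527 and 5430 with limma at pseudocounts of 1 and 0.1, 1398 with only the 8 libraries compared and 1869 with the replicate block. It was 1707 to 6404 with single libraries left out, with 2102, 1707 and 1709 without DMD-Null 1, 2 and 3, and 6404 and 1936 without WT 2 and WT 3. In mdx against WT, 4001 genes were called. That count was 1701, 2268 and 2377 at a mean FPKM of at least 5, with the 8 libraries and with the block, 2649 without WT 1 and WT 3, and 2300 to 6874 with single libraries left out (2355, 2447 and 2300 without mdx 1, 3 and 4, 6874 and 2342 without WT 2 and WT 3). In DMD-Null against mdx, 2 genes were called, against 6 with DESeq2, 1 at a mean FPKM of at least 5, 4 with the 8 libraries, 0 with the block and 1 to 2 with single libraries left out. The replicate block left the member counts at 7, 7 and 0. Depth was not limiting for the 10 genes, whose lowest count was 213.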
